A study of Mus musculus with 8 samples.

Results

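Inflammatory cytokines and the inhibitors that NF-kB induces against itself were followed in cells isolated as microvascular endothelial cells from LRP1 KO and wild-type mice. LRP1 is an endocytic and signaling receptor related to the LDL receptor. The genes were chosen by symbol. They comprise the cytokines Il1b, Tnf, Il6, Lif and Il33, the receptor antagonist Il1rn, the IL-33 receptor Il1rl1, the feedback inhibitors Nfkbia and Tnfaip3 and the NF-kB subunit gene Nfkb1. All 10 were present among the 22520 genes of the deposited RNA sequencing table, and 7 of them were expressed highly enough to enter the test across 11389 genes.

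The study sequenced 8 libraries, 4 from LRP1 KO mice and 4 from wild-type (WT) littermates, and asked which transcripts depend on endothelial LRP1. The mice were C57BL/6 at postnatal day 14, and the labels describe each library as mixed from 3 organs, the heart, liver and lung. Per the study's methods, its endothelial knockout is Lrp1 f/f; Cdh5-CreER +/-, in which an inducible Cre recombinase is driven by the promoter of Cdh5, the gene of an endothelial junction protein, and the littermates are Lrp1 f/f; Cdh5-CreER -/-. In this scheme both groups carry the floxed alleles, and Cre is present in the LRP1 KO group alone. Cells were selected on beads against PECAM-1, a surface protein of endothelial cells that some leukocytes also carry. Whether a library came from 1 animal or a pool, and how Cre was induced in these pups, is not given in the sources used here, so the p-values measure the spread between these libraries, which may be technical.

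NF-kB is a family of dimeric transcription factors held in the cytoplasm by IkB proteins. IL-1 and TNF bind receptors that activate the IKK kinase complex, IkB is degraded, and NF-kB enters the nucleus and induces cytokines, chemokines and adhesion molecules. It also induces its own inhibitors, IkBa (Nfkbia) and the ubiquitin-editing enzyme A20 (Tnfaip3), so that transcripts of these genes are widely read as signs of recent NF-kB activity. In endothelium the pathway drives the adhesion of leukocytes and the production of IL-6.

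Lrp1 itself was checked first. It was expressed at 113, 140, 103 and 124 FPKM (fragment counts divided by transcript length and by all mapped fragments) in WT 1 to 4 and, in LRP1 KO 1 to 4, at 3.45, 5.20, 2.79 and 7.72 FPKM. The groups did not overlap, and the log2 fold change was -4.45 (limma adjusted p = 8.9e-05). LRP1 KO 4 had the highest Lrp1 level of its group and stood apart from the other LRP1 KO libraries in general. On the first principal component of the tested genes, which held 60.8% of the variance, it lay at 0.10, the other LRP1 KO libraries between 17.2 and 27.3 and the WT libraries between -24.1 and -12.9. The summed level of 14 endothelial marker genes was 170 to 185 FPKM in WT. It reached 614, 390 and 455 FPKM in LRP1 KO 1 to 3 and 178 FPKM in LRP1 KO 4. All 14 markers were detected at a mean of at least 1 FPKM in WT, but mesothelial and fibroblast genes were far more abundant, with sums of 2211 to 2569 FPKM for 5 mesothelial genes and 2559 to 3764 FPKM for 12 fibroblast genes in WT. Results that change their call without LRP1 KO 4 are therefore given with and without that library. Mean Lrp1 in LRP1 KO was 3.99% of that in WT. The mesothelial and fibroblast sums in LRP1 KO were 1925 to 2159 and 2191 to 3407 FPKM. Whether the loss of Lrp1 was confined to endothelial cells, as in the stated scheme, was not tested.

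The start of each gene was examined for the letters that NF-kB and its frequent partner AP-1 recognise, since these are the sequences through which the pathway is known to act on Il6 and on its own inhibitors. RefSeq start sites (GRCm38.p6) were found for 9 of the 10 genes, giving 14 windows of the 250 bases before a start. The kappaB motif of 10 letters, searched on both strands, occurred in 3 windows of 3 genes (Il6, Nfkbia and Tnfaip3), against 3.90% of the 32851 windows of all genes. The AP-1 motif TGANTCA, which reads the same on both strands, occurred in 4 windows of 4 genes (Il1rn, Il6, Lif and Tnfaip3), against 6.75% of all windows. The Il6 window (chr5:30012864-30013113, + strand) and the Nfkbia window (chr12:55492648-55492897, - strand) are printed 5′ to 3′ because both hold a kappaB match, and of this cytokine and this inhibitor Il6 passed the test below and Nfkbia did not. Capitals mark kappaB matches and, in Il6 alone, the AP-1 match TGAGTCA near the left end.
Il6: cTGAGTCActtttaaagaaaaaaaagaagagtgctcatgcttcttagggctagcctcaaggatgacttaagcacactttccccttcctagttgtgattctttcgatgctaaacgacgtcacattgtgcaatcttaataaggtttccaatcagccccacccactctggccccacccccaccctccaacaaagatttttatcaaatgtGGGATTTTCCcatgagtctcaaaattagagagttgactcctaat
Nfkbia: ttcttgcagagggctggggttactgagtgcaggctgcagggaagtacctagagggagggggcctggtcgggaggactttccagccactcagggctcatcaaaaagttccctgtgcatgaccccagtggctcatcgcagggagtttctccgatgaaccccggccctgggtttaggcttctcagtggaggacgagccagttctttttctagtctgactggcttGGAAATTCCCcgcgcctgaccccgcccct
In Il6 the kappaB match GGGATTTTCC began 44 bases before the start and the AP-1 match 249 bases before it. In Nfkbia the match GGAAATTCCC began 29 bases before the start and is written as it stands on the gene's strand. The Tnfaip3 window (chr10:19015411-19015660, - strand) held GGGACACCCC at 125 bases and GGAAATCCCC at 12 bases before its start. These are matches of letters, and no binding was measured.

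LRP1 KO and WT cells differed in 1 of the 7 tested genes. Il6 rose 3.91-fold, and the other 6 did not pass the threshold of an adjusted p of 0.05. Of all tested genes 13.6% passed, 6.27% with higher and 7.31% with lower expression in LRP1 KO, so that 1 call among 7 genes is close to the general rate. Only 1.62% of the tested genes passed with a log2 fold change of at least 1 in either direction, and Il6 was among them. The median log2 fold change over the 7 genes was -0.04, beside -0.01 over all tested genes. The range of the groups did not overlap for Il6 and Il1rn, 2 of 7 genes, against 19.6% of all tested genes.

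**Figure D1:**
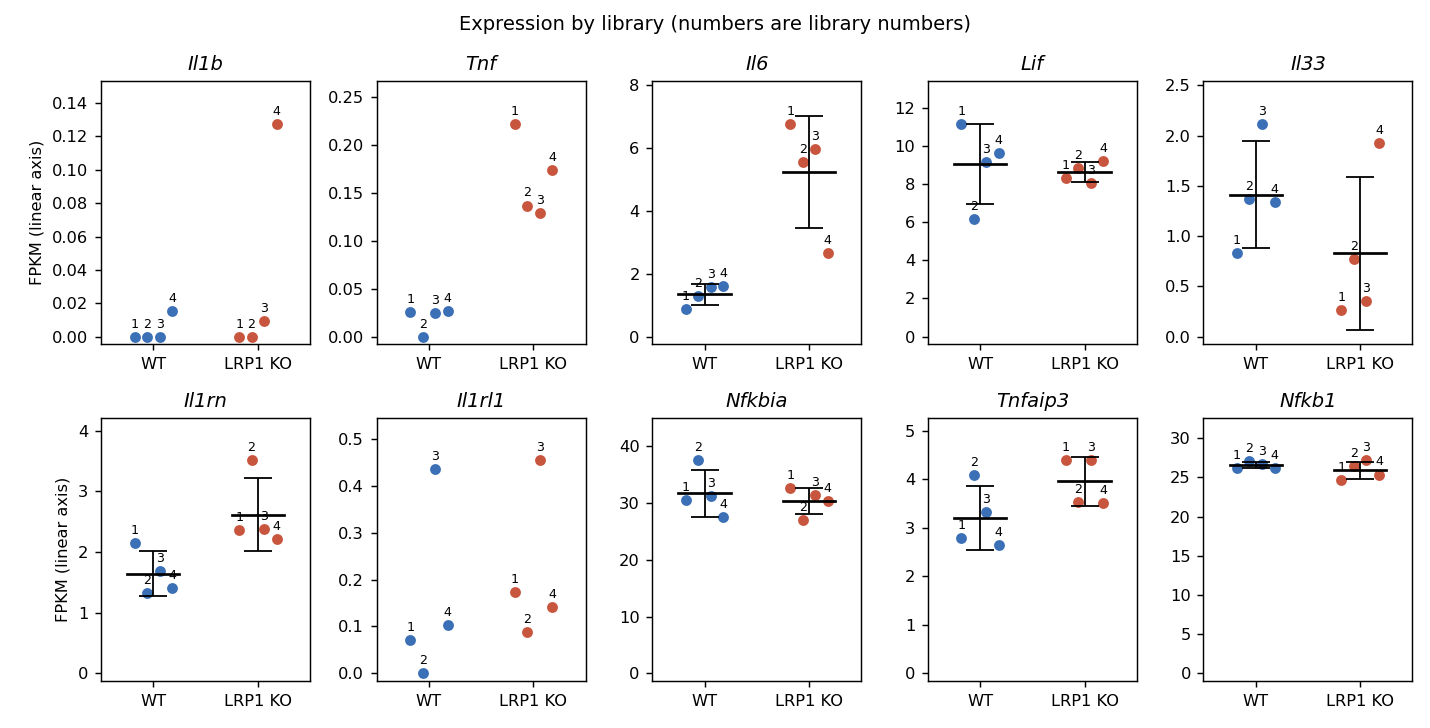
Expression of the 10 genes in FPKM on linear axes, with a point for each library numbered 1 to 4 and, for the 7 tested genes, the mean with SD as a bar (n = 4 a group). Il6 is higher in each LRP1 KO library (2.65 to 6.76 FPKM) than in any WT library (0.862 to 1.61 FPKM), while the ranges of Nfkbia and Nfkb1 overlap between the groups.

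Il6 (chr5:30013114-30019981, + strand), the gene of interleukin-6, a cytokine that endothelial cells and fibroblasts release on NF-kB activation, showed the clearest difference. It was expressed at 0.862, 1.29, 1.59 and 1.61 FPKM in WT 1 to 4 and, in LRP1 KO 1 to 4, at 6.76, 5.53, 5.95 and 2.65 FPKM. The lowest LRP1 KO value exceeded the highest WT value, and LRP1 KO 4 lay closest to WT. The means were 1.34 ± 0.348 and 5.23 ± 1.79 FPKM (SD, n = 4 each), and the log2 fold change of FPKM + 1 was 1.37 with a standard error of 0.22 (limma adjusted p = 0.0079). Over 16 alternative settings, which include leaving out each library in turn, the adjusted p from limma ranged from 0.0003 to 0.0302. Without LRP1 KO 4 the log2 fold change was 1.61. Il6 was nonetheless a transcript of low abundance, since in WT only 3.84% of the tested genes had a lower mean.

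Il6 varied among the LRP1 KO libraries in the order 1, 3, 2, 4, which is also the order of the summed endothelial markers and of the summed mural markers (1576, 1479, 1301 and 963 FPKM for 8 genes, against 588 to 752 FPKM in WT). In WT the orders differed, with 4, 3, 2, 1 for Il6 and 3, 2, 1, 4 for the endothelial sum. Of the mural genes, Acta2 and Tagln had the highest means in LRP1 KO, 711 and 549 FPKM, and so weigh most in the sum. All 6 tested mural genes had positive log2 fold changes. Rgs5 and Kcnj8 were under the filter, with means of 0.720 and 0.197 FPKM in WT and 0.669 and 0.221 FPKM in LRP1 KO. In LRP1 KO 4, whose endothelial sum lay inside the WT range and whose macrophage sum was 521 FPKM against 89.9 to 113 FPKM in WT, Il6 was 2.65 FPKM, above the highest WT value of 1.61 FPKM. The part of these markers in the Il6 difference was not tested. In such bulk samples a change in the share of a cell type and a change in RNA per cell cannot be told apart. Within groups, the genes that varied most like Il6 over the 8 libraries were Actr1b, Ttc7b and Anxa7 (Pearson r = 0.987, 0.987 and 0.986, the highest among all tested genes). Picked as the highest of so many genes over 8 libraries, such correlations are high by selection, here and for the genes below. They are given as a description.

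Il1rn (chr2:24336853-24351494, + strand) encodes the antagonist that occupies the IL-1 receptor without signaling. It was expressed at 2.15, 1.33, 1.68 and 1.41 FPKM in WT 1 to 4 and, in LRP1 KO 1 to 4, at 2.36, 3.51, 2.38 and 2.22 FPKM. The groups did not overlap, but LRP1 KO 4 at 2.22 FPKM and WT 1 at 2.15 FPKM nearly met. The means were 1.64 ± 0.371 and 2.62 ± 0.601 FPKM (SD, n = 4 each), and the log2 fold change of 0.45 (95% interval 0.14 to 0.75) missed the threshold (limma adjusted p = 0.0561). It passed without WT 1 (0.54, limma adjusted p = 0.0488), without LRP1 KO 4 (0.50, limma adjusted p = 0.0348) and with weights for each library (0.51, limma adjusted p = 0.0201), and over all 16 alternatives the adjusted p ran up to 0.147. Il1rn was highest in LRP1 KO 2, which also had the highest macrophage sum (565 FPKM for 14 genes) and the highest sum of general leukocyte genes (97.9 FPKM for 8 genes, against 8.87 to 15.1 FPKM in WT). Of these lists, 7 of 9 tested macrophage genes and 6 of 7 tested leukocyte genes rose, where 6.27% of all tested genes did. A further 2 macrophage genes, Adgre1 and Mrc1, reached 1 FPKM in LRP1 KO alone and are left out of this count. Cd14 ran the other way, from a mean of 37.3 to 26.9 FPKM (log2 fold change -0.47, limma adjusted p = 0.136). Without LRP1 KO 4, 8 of 11 macrophage genes rose and 1 fell, with Adgre1 and Mrc1 among the 11, and 6 of 7 leukocyte genes rose. In that fit 12.6% of all tested genes rose and 13.9% fell. Il1rn in the other libraries did not follow the macrophage sum. LRP1 KO 4 had the second highest macrophage sum (521 FPKM) and the lowest Il1rn of its group, and LRP1 KO 3 the lowest macrophage sum (231 FPKM) and the second highest Il1rn. The part of these lists in the Il1rn values was not tested. Gm10324, Rab3a and Anapc5 varied most like Il1rn within groups (r = 0.985, 0.953 and 0.931 over 8 libraries).

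Tnf (chr17:35199381-35202007, - strand), a cytokine made chiefly by macrophages and lymphocytes, was barely detected and did not enter the test across genes. It was at 0.0253, 0, 0.0244 and 0.0262 FPKM in WT 1 to 4 and, in LRP1 KO 1 to 4, at 0.223, 0.137, 0.129 and 0.174 FPKM. The groups did not overlap, with LRP1 KO higher, at levels below 1 FPKM throughout. The difference in means gave p = 0.0286 in an exact two-sided permutation test over the 70 ways to assign the libraries, which is the smallest p this design allows. In the fit without a filter on low values the log2 fold change of FPKM + 1 was 0.19 (limma adjusted p = 0.0117). Among the LRP1 KO libraries Tnf ran in the order 1, 4, 2, 3, while the macrophage sum ran in the order 2, 4, 1, 3, and the part of these cells in the Tnf values was not tested. Depth is unknown in these normalized values, so the number of fragments behind such levels cannot be given.

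Il1b (chr2:129364570-129371139, - strand), the gene of the main secreted ligand of the IL-1 receptor, was at or near the floor. It was listed at 0 in WT 1 to 3 and in LRP1 KO 1 and 2, and reached 0.0154 FPKM in WT 4, 0.00948 FPKM in LRP1 KO 3 and 0.128 FPKM in LRP1 KO 4. No difference was detectable at these levels (p = 0.714, exact two-sided permutation test). The antisense gene Il1bos overlaps Il1b, and whether strand was used is not given in the sources used here. Genes that define neutrophils, a strong source of IL-1b, had low sums, with S100a9, Ly6g and Retnlg listed at 0 in all 8 libraries. S100a8, the single tested gene of the 8 on that list, which some macrophages also express, rose from a mean of 0.813 to 2.52 FPKM (log2 fold change 0.94, limma adjusted p = 0.0475). That call was lost in 9 of 15 alternatives, among them the removal of WT 2, 3 or 4 or LRP1 KO 1, 2 or 4. It was highest in LRP1 KO 4 at 3.53 FPKM, the library with the highest Il1b value, but nearly as high in LRP1 KO 2 at 3.22 FPKM, where Il1b was listed at 0, and its part in the Il1b values was not tested.

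Il33 and its receptor Il1rl1 (ST2) were examined as a pair. IL-33 is an alarmin stored in the nuclei of endothelial, epithelial and fibroblast cells, and ST2 is the receptor through which it acts on mast cells, type 2 innate lymphoid cells and regulatory T cells. Il33 (chr19:29925114-29960718, + strand) was expressed at 0.835, 1.37, 2.12 and 1.34 FPKM in WT 1 to 4 and, in LRP1 KO 1 to 4, at 0.263, 0.774, 0.356 and 1.92 FPKM. LRP1 KO 1 to 3 lay below every WT library, whereas LRP1 KO 4 was second only to WT 3. Over all 8 libraries the log2 fold change was -0.46 (95% interval -1.05 to 0.13, limma adjusted p = 0.248). Without LRP1 KO 4 it was -0.71 and passed the threshold (limma adjusted p = 0.0242), so that 1 library decides the call. Il33 was the mirror image of Il6 among the LRP1 KO libraries, with the order 4, 2, 3, 1, and thus ran against the endothelial and mural sums. It had the order of the summed fibroblast markers there (3407, 2886, 2639 and 2191 FPKM for 12 genes in LRP1 KO 4, 2, 3 and 1), and the part of these markers in the Il33 values was not tested. Over the 8 libraries, deviations of Il33 from its group means correlated with those of Il6 at r = -0.59, given as a description. Il33 entered the test with 4 libraries at 1 FPKM or more, 3 of WT and LRP1 KO 4, and Gpr155, Bicc1 and Phactr1 varied most like it (r = 0.981, 0.980 and 0.974).

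Il1rl1 (chr1:40429570-40465415, + strand) was at 0.0713, 0, 0.435 and 0.103 FPKM in WT 1 to 4 and, in LRP1 KO 1 to 4, at 0.174, 0.0882, 0.455 and 0.142 FPKM. Library 3 was highest in both groups, and the groups overlapped widely (p = 0.486, exact two-sided permutation test). The 9 marker genes of mast cells and type 2 innate lymphoid cells had sums of 2.11 to 2.46 FPKM in WT, while those of LRP1 KO were 3.05 to 4.79 FPKM. Of this list Il7r, which lymphoid cells express widely, had means of 0.200 FPKM in WT against 1.27 FPKM in LRP1 KO, and it reached 1 FPKM in LRP1 KO alone. Under the filter, the means in WT and LRP1 KO were 0.456 and 0.926 FPKM for Kit, 0.0631 and 0.168 FPKM for Cma1, 0.135 and 0.132 FPKM for Mcpt4 and 0.138 and 0.0495 FPKM for Cpa3, so that mast cell genes did not move one way. Tpsb2 and Fcer1a were listed at 0 in all libraries.

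Lif (chr11:4257557-4272514, + strand) encodes leukemia inhibitory factor, a cytokine that signals through the same co-receptor, gp130, as IL-6. It was expressed at 11.2, 6.18, 9.16 and 9.64 FPKM in WT 1 to 4 and, in LRP1 KO 1 to 4, at 8.33, 8.85, 8.03 and 9.20 FPKM. The LRP1 KO values lay inside the WT range, which was set by WT 1 and WT 2. The log2 fold change was -0.04 (95% interval -0.36 to 0.28, limma adjusted p = 0.874), and it was 0.062 without WT 1. Lif was the most abundant of the 5 cytokine genes in both groups, with means of 9.04 FPKM (WT) and 8.60 FPKM (LRP1 KO). The genes varying most like it within groups were Gnpnat1, Tk1 and Ube2e1 (r = 0.966, 0.947 and 0.946 over 8 libraries).

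**Figure D2:**
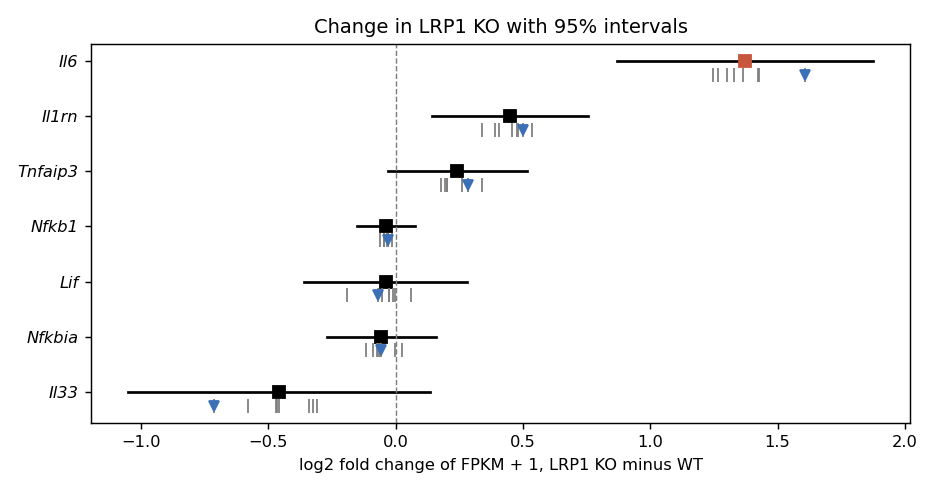
Log2 fold change of FPKM + 1 (LRP1 KO minus WT) for the 7 tested genes, with squares for the limma estimate from 8 libraries (red where the adjusted p is under 0.05), lines for its 95% interval, grey ticks for the estimates with 1 library left out and a blue triangle for the one without LRP1 KO 4. Il6 at 1.37 lies apart from 0 in every fit, Il33 moves from -0.46 to -0.71 without LRP1 KO 4, and the narrow interval of Nfkb1 spans 0.

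Neither feedback inhibitor passed the test. Nfkbia (chr12:55489410-55492647, - strand), which encodes the IkBa protein that returns NF-kB to the cytoplasm, was expressed at 30.5, 37.5, 31.2 and 27.6 FPKM in WT 1 to 4 and, in LRP1 KO 1 to 4, at 32.6, 27.1, 31.4 and 30.3 FPKM. The groups overlapped, and the log2 fold change of -0.06 had a 95% interval of -0.27 to 0.16 (limma adjusted p = 0.713). Its sign changed to 0.026 without WT 2, the highest library. Nfkbia was the most abundant of the 10 genes in both groups and stood above 77.0% of the tested genes in WT. Slc25a1, Naif1 and Whrn varied most like it within groups (r = 0.969, 0.968 and 0.967 over 8 libraries).

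Tnfaip3 (chr10:19000910-19015657, - strand) encodes A20, which removes activating ubiquitin chains from adaptors upstream of IKK. It was expressed at 2.78, 4.09, 3.33 and 2.64 FPKM in WT 1 to 4 and, in LRP1 KO 1 to 4, at 4.39, 3.52, 4.39 and 3.52 FPKM. The LRP1 KO libraries were above WT 1, 3 and 4, and WT 2 lay among them. The log2 fold change was 0.24 (95% interval -0.03 to 0.52, limma adjusted p = 0.191), and over the 16 alternatives its adjusted p ranged from 0.0699 to 0.383. Tnfaip3 and Nfkbia had the same order in WT (2, 3, 1, 4). Their deviations from the group means correlated at r = 0.91 over the 8 libraries, the highest value among the tested genes described here, while those of Lif ran against both (r = -0.86 with Tnfaip3 and -0.76 with Nfkbia). WT 2, the highest WT library for both inhibitors, was the lowest of all 8 for Lif. It was also the highest of all 8 for the NF-kB subunit genes Rela (36.9 FPKM), Nfkb2 (27.1 FPKM) and Relb (19.98 FPKM), which were singled out after their values were seen. Beyond these genes, Klc1, Zfp319 and Alas1 varied most like Tnfaip3 (r = 0.997, 0.981 and 0.962).

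Nfkb1 (chr3:135584655-135691547, - strand) encodes p105, the precursor of the p50 subunit that also retains NF-kB dimers in the cytoplasm. It was expressed at 26.2, 27.1, 26.8 and 26.3 FPKM in WT 1 to 4 and, in LRP1 KO 1 to 4, at 24.6, 26.4, 27.2 and 25.4 FPKM. The 8 values were close together, and the log2 fold change was -0.04 (95% interval -0.15 to 0.08, limma adjusted p = 0.631), the narrowest interval of the 7 genes. Pofut1, Oas3 and Bckdhb varied most like Nfkb1 within groups (r = 0.969, 0.967 and 0.936 over 8 libraries).

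The order of the levels, in FPKM and so per length of transcript, was alike in the 2 groups at the top. In WT, Nfkbia stood highest, followed by Nfkb1 (73.0% of tested genes lower), Lif (42.1%) and Tnfaip3 (17%). Il1rn, Il33 and Il6 followed with overlapping ranges, and then Il1rl1, Tnf and Il1b below 1 FPKM. In LRP1 KO, Il6 moved up to the level of Tnfaip3, with means of 5.23 and 3.95 FPKM, and its mean stood above that of Il1rn, 2.62 FPKM. The range of Il6 overlapped those of both. Neighbours whose ranges overlapped were not told apart, which in LRP1 KO also held for Nfkbia and Nfkb1 and for Il1rl1 and Tnf.

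The other genes of the pathway were taken from 8 lists. Over all tested genes, 33.7% had an unadjusted p under 0.05. Among the remaining NF-kB subunits, 0 of 3 tested genes passed (limma, 2 at an unadjusted p under 0.05), with a median log2 fold change of -0.23. Relb came closest at -0.40 (limma adjusted p = 0.0559). Among further feedback inhibitors, 0 of 13 passed (limma, 1 at an unadjusted p under 0.05), with a median of -0.09. Among kinases and adaptors, 0 of 19 passed (limma, 3 at an unadjusted p under 0.05), with a median of -0.02. No gene of the signaling core was thus called by limma with all 8 libraries, where 13.6% of all tested genes were. Without LRP1 KO 4, 2 of the 3 subunit genes and 1 of the 13 inhibitors fell and 1 of the 19 kinases and adaptors rose, while 12.6% of all tested genes rose and 13.9% fell.

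The cytokine branches held single calls in both directions, where 6.27% of all tested genes rose and 7.31% fell. In the IL-1 family and inflammasome list, 1 of 8 tested genes rose and 1 fell, with a median log2 fold change of 0.02. Il18, the gene of a cytokine that needs cleavage by caspase-1, fell from 29.6 ± 3.21 to 18.7 ± 0.964 FPKM (SD, n = 4 each), a log2 fold change of -0.63 (limma adjusted p = 0.0024), and was called in all 16 alternatives. Il1r1, the signaling IL-1 receptor, was called at 0.38 (limma adjusted p = 0.0499) and lost the call in 13 of the 16 alternatives, among them the removal of any library but WT 4, and without LRP1 KO 4 Il18 alone of the list was called. Of 7 tested TNF ligands, receptors and processing genes, 1 rose and 1 fell, with a median of -0.06, and without LRP1 KO 4 1 rose and 3 fell. In the fit without LRP1 KO 4, 12.6% of all tested genes rose and 13.9% fell. Tnfrsf12a, the receptor of TWEAK, rose by 0.41 (limma adjusted p = 0.0365) and Adam17, the protease that sheds TNF and its receptors, fell by 0.40 on the log2 scale (limma adjusted p = 0.0193). Leaving out WT 2, LRP1 KO 1, 2 or 3 ended the call of Adam17, and leaving out WT 2, WT 3, LRP1 KO 1, 2 or 3 or the filter on low values that of Tnfrsf12a.

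In the IL-6 family, where Il6 itself rose, 3 of 10 tested genes fell and 0 rose, where 7.31% of all tested genes fell, with a median log2 fold change of -0.20. Ctf1, the gene of cardiotrophin-1, a further gp130 cytokine, went from 5.83 to 3.42 FPKM, a log2 fold change of -0.61 (limma adjusted p = 0.0144), and was called in all 16 alternatives. Il6ra, the ligand-binding receptor of IL-6, had a log2 fold change of -0.46 (limma adjusted p = 0.0369) and Il11ra1, the receptor of IL-11, one of -0.43 (limma adjusted p = 0.0443). The count was 5 of 10 genes lower without LRP1 KO 4, where 13.9% of all tested genes fell. The calls of Il6ra and Il11ra1 were lost in 7 and 10 of the 16 alternatives, both without WT 2, 3 or 4 or LRP1 KO 1, 2 or 3, and that of Il11ra1 also without WT 1. Ligand and receptor of IL-6 thus differed in opposite directions in the fit to all 8 libraries.

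Of 11 tested NF-kB target genes, 3 rose and 0 fell, where 6.27% of all tested genes rose. They were Csf1, the growth factor of macrophages (0.78, limma adjusted p = 0.0328), the chemokine gene Ccl5 (0.75, limma adjusted p = 0.0282) and Icam1, an adhesion molecule for leukocytes (0.40, limma adjusted p = 0.0297). Each lost its call in some alternatives, Csf1 and Icam1 in 8 of 16 and Ccl5 in 6 of 15. Leaving out LRP1 KO 1 or 2 or WT 3 ended all 3 calls, LRP1 KO 3 or WT 1 those of Csf1 and Icam1, WT 2 those of Csf1 and Ccl5, and WT 4 those of Icam1 and Ccl5. For Csf1, LRP1 KO 4 at 241 FPKM lay inside the WT range of 165 to 254 FPKM, and the other LRP1 KO libraries were at 351 to 432 FPKM. Without LRP1 KO 4 its log2 fold change was 0.96 (limma adjusted p = 0.0025), and 5 of the 11 target genes rose and 1 fell. In that fit 12.6% of all tested genes rose and 13.9% fell. The median of the list was 0.04. Of the 15 tested genes that respond to cell dissociation and other acute stimuli, 2 rose and 0 fell, with a median of 0.04, so that the called share is close to the 13.6% of all tested genes. The counts were 3 and 1 without LRP1 KO 4, where 12.6% of all tested genes rose and 13.9% fell. Jun, the gene of an AP-1 subunit, went from 11.7 to 19.3 FPKM (log2 fold change 0.68, limma adjusted p = 0.0009) and Atf3 from 4.46 to 8.27 FPKM (0.78, limma adjusted p = 0.0084), each called in all 16 alternatives.

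**Figure D3:**
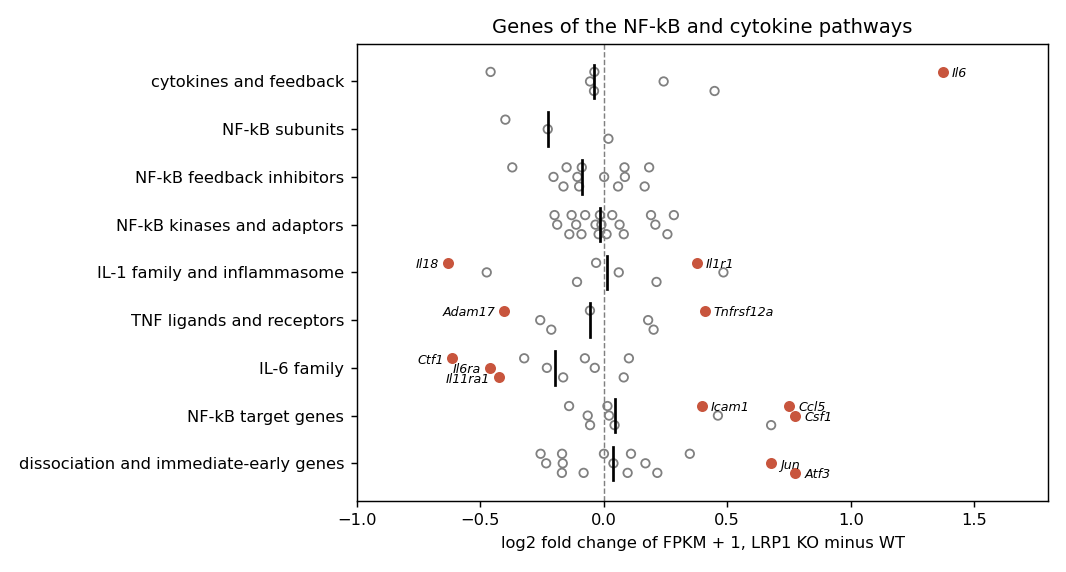
Log2 fold change of FPKM + 1 (LRP1 KO minus WT) of each tested gene, grouped by list, with filled red points and names for genes with a limma adjusted p under 0.05, open points for the others and a black bar for the median of each list. Il6 at 1.37 lies farthest from 0, and the subunits, feedback inhibitors and kinases hold 0 called genes in this fit to 8 libraries.

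The cell types that could supply these cytokines were described by their marker sums. Over all tested genes, 48.1% had a positive log2 fold change, 6.27% rose and 7.31% fell. Beside the rise of macrophage and leukocyte genes, 14 of 14 endothelial genes had positive log2 fold changes (median 0.82), 10 at an unadjusted p under 0.05 and 1 past the limma threshold, and 3 of 6 tested mural genes rose. Without LRP1 KO 4, 12 of 14 endothelial and 5 of 6 mural genes rose, beside 12.6% of all tested genes, and 7 of 12 fibroblast and 3 of 5 mesothelial genes fell, beside 13.9% of all tested genes. Lymphocyte genes, the other main source of Tnf, summed to at most 0.314 FPKM, with Cd3e, Cd8a, Nkg7 and Gzmb listed at 0 in all libraries. Neutrophil genes summed to at most 4.03 FPKM. The mesothelial sum was 1925 to 2159 FPKM in LRP1 KO, below all WT libraries, and 2 of the 5 mesothelial genes fell. The fibroblast sum in LRP1 KO was 2191 to 3407 FPKM and overlapped WT, and of the 12 fibroblast genes 2 fell and 1 rose. Which of these cells expressed Il6, Il33 or Il1rn cannot be told from bulk libraries.

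**Figure D4:**
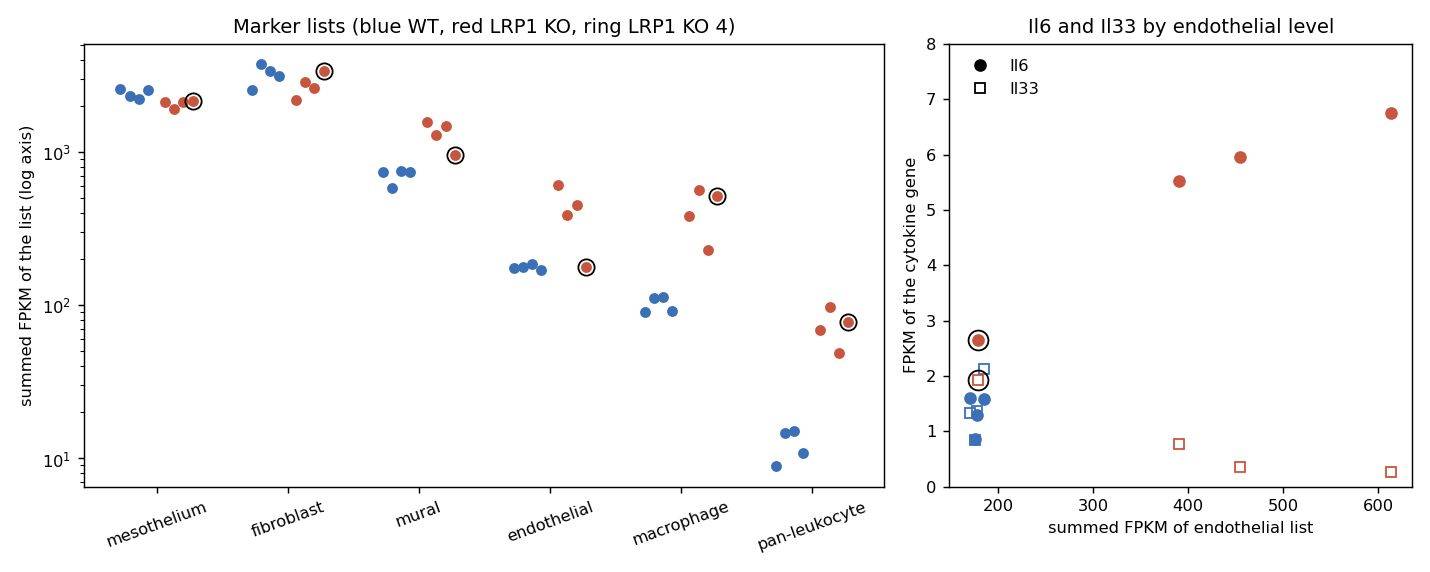
Left, summed FPKM of each cell type marker list by library on a log axis, and right, Il6 and Il33 in FPKM against the summed endothelial markers, with a ring around LRP1 KO 4. LRP1 KO 4 has an endothelial sum of 178 FPKM, inside the WT range of 170 to 185 FPKM, with Il6 at 2.65 FPKM and Il33 at 1.92 FPKM.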

How the data were processed

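RNA was sequenced from 8 libraries, prepared with Illumina TruSeq kits per the labels and grouped by sample title. The submitters' processing notes name TopHat2, Cufflinks and mm10. The study's methods describe counting with STAR and featureCounts, which the values do not match. The authors deposited quantile-normalized values taken here to be FPKM. The unit is inferred, library sums were 503571 to 504112 and depth is unknown, so a broad shift or a change in total RNA cannot be seen, and no counting error can be given.

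Because the values were not counts, a count test could not be used. Expression was analysed as log2(FPKM + 1) for genes at 1 FPKM or more in at least 4 libraries (11389 of 22520) with limma 3.58.1 in R 4.3.3, with a mean-variance trend and Benjamini-Hochberg adjustment over tested genes. Fold changes on this scale understate those of low genes. Genes under the filter were compared by an exact two-sided permutation test over 70 assignments, whose smallest p is 0.0286. The fit was tested on simulated data. Alternatives were 2 other pseudocounts, no filter and a stricter one, rescaling, no trend, library weights, a replicate block and leaving out each library.

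The 10 genes and the 8 pathway and 12 marker lists were chosen with earlier results of these data known. Of each pathway list, up to 3 called genes in each direction with the largest fold changes are named, and for each tested gene the 3 genes with the highest correlation of deviations from group means. Marker genes named one by one were chosen after their values were seen. Lrp1, the named pathway genes, S100a8, Il7r and the counts of each list without LRP1 KO 4 were added to the alternatives after seeing the data. Of the 212 list genes, 2 were found under an older symbol. Gene positions are from GENCODE M21 (GRCm38), and start sites from RefSeq (GRCm38.p6).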

Additional observations from a re-analysis of the deposited data

Results flagged for a closer look

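In groups of 4, a library was singled out where its gap to the nearest other library as a share of the range of its group exceeded Dixon's 95% critical value, which chance alone exceeds in about 1 in 20 groups. Of the 22 groups examined (10 genes and Lrp1 in WT and in LRP1 KO), 4 met it. Il1b was at 0.0154 FPKM in WT 4 with the other 3 WT libraries at 0, and at 0.128 FPKM in LRP1 KO 4. Il1rn was at 3.51 FPKM in LRP1 KO 2, above the other LRP1 KO libraries at 2.22 to 2.38 FPKM. Tnf was listed at 0 in WT 2, and the other WT libraries were between 0.0244 and 0.0262 FPKM. The Il1b and Tnf values lie far below 1 FPKM. The rate of 1 in 20 holds for normally distributed values and cannot be applied to groups at the floor. With 3 libraries at 0, as for Il1b in WT, any other value gives a share of 1.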

How the results depend on the processing

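Il6 was called in all 16 alternatives and Tnfaip3, Nfkbia, Nfkb1 and Lif in none of them, with log2 fold changes of 1.25 to 1.85 for Il6, the highest with a pseudocount of 0.1 in place of 1. The number of called genes, 1547, was 3003 with library weights, 1013 with the replicate block and 512 to 3021 when 1 library was left out, the highest without LRP1 KO 4. With a log2 fold change of at least 1 the count of 184 became 282 with weights and 133 to 339 without 1 library, again highest without LRP1 KO 4. Among the cytokine and feedback genes the 1 call became 2 without the filter (Tnf) and with weights (Il1rn), 1 to 3 without 1 library, with 2 without WT 1 (Il1rn) and 3 without LRP1 KO 4 (Il1rn and Il33). Without 1 library, Lif ran from -0.19 to 0.062, with a changed sign without WT 1, and Nfkbia from -0.12 to 0.026, with a changed sign without WT 2. The exact permutation p of Il1b ran from 0.257 to 1 with its direction changed without LRP1 KO 4, and that of Il1rl1 from 0.143 to 0.971 with its direction changed without LRP1 KO 3. Il33 did not pass the filter at 2 FPKM and has no value there, and the exact permutation test on log2(FPKM + 1) changed no call. Apart from what the construction of an alternative sets, the cause was not tested.

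Whether replicate numbers pair the libraries is not given in the sources used here, and correlations over so few libraries cannot decide it. Deviations of same-numbered libraries correlated at 0.158, 0.141, 0.340 and -0.312, and 2 of the 4 WT libraries correlated best with their own number. With the replicate block, Il6 kept its call (limma adjusted p = 0.0296) and of the named pathway genes Il1r1, Csf1 and Icam1 lost it (0.0763, 0.0645 and 0.0517). Quantile normalization hides depth, which sets how far Tnf, Il1b and Il1rl1 can be read.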
